A study of Homo sapiens with 12 samples.

Results

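HCT116 cells, a colon carcinoma line of epithelial origin, were given siTotal2, one of the siRNAs that target all transcripts of NFYA, and their polyadenylated RNA was compared with that of 2 control groups. The siTotal2 cultures received the siRNA at 62.5 nM, the siControl cultures received a non-targeting siRNA at 62.5 nM, and the mock cultures went through transfection without any siRNA. All were seeded at 25000 cells per well and collected 72 h after transfection. Each group held 2 libraries, so 6 of the 12 libraries of the study belong to the comparison, and 17730 of 63677 genes passed the filter on low counts. Within a group the 2 libraries are described as biological duplicates, all of 1 cell line, so the p-values measure only the spread between such duplicates. The question was which genes differ when all NFYA transcripts are targeted. A gene is given here as higher or lower only where it differed in the same direction from mock and from siControl, since the control groups differed from each other. The other siRNA to all NFYA transcripts, siTotal1 (62.5 nM, 2 libraries), is set beside siTotal2 where they differed.

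NF-Y is a transcription factor made of NFYA, NFYB and NFYC. NFYB and NFYC pair through histone folds, and NFYA joins the pair and gives it its specificity for the CCAAT box, a short promoter element common in genes of cell division, lipid synthesis and protein folding and in histone genes. NFYA is the regulatory subunit, since the trimer does not form without it. The siTotal sequences are shown because they define the perturbation. They are given as the 19 matched bases in capitals with 5 bases of the transcript on either side in lower case. The labels list both sequences without saying which one is siTotal1 and which is siTotal2.
First siTotal sequence: gctaaACTAGAGGCAGAAGGGAAAattcc
Second siTotal sequence: aagcgTGGTGAAGGTGGACGATTTttctc
The first matches exon 8 of 10 of transcript NFYA-201 (chr6:41093049-41093067, GRCh38, plus strand) and the second matches exon 9 (chr6:41094443-41094461). Both lie in coding sequence and are found in 2 of 2 annotated coding transcripts of NFYA and in no other annotated gene.

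Library totals were 35758539 and 38246541 reads in siTotal2, 49746637 and 41649949 in mock, and 37529087 and 37358606 in siControl. Epithelial identity genes of the line (EPCAM, CDH1, keratins and others) summed to between 3260 and 3620 CPM, reads scaled to a common library size, in these 6 libraries, with none of the 8 at 0. Fibroblast markers were uneven between libraries: DCN, a proteoglycan of connective tissue, had 92 and 51 reads in siTotal2, 106 and 0 in mock, and 0 and 0 in siControl. The 10 fibroblast markers together stood at 43.0 and 44.8 CPM in siTotal2, 46.8 and 26.4 CPM in mock, and 35.4 and 34.0 CPM in siControl, with COL1A1 holding most of those reads. Markers at 0 numbered 1 and 1 in siTotal2, 0 and 6 in mock, and 4 and 6 in siControl, and none of the 5 markers with enough reads was called (medians -0.29 against mock and 4.20 against siControl). IGFBP5, a growth-factor-binding protein gene picked out after its values were seen, followed the same libraries, at 226 and 129 reads in siTotal2, 415 and 5 in mock, and 0 and 0 in siControl. Mitochondrial genes took 5.75% and 5.54% of the reads in siTotal2, 4.58% and 3.83% in mock, and 3.90% and 4.98% in siControl.

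Across the 12417 tested genes with an average log2 CPM above 1, the siTotal2 profile lay nearer to mock than to siControl. The root mean square log2 difference between group means was 0.24 to mock and 0.41 to siControl, against 0.35 between mock and siControl. The siTotal2 duplicates, compared as single libraries and not as means, differed by 0.14. In edgeR's quasi-likelihood test with Benjamini-Hochberg adjustment, 2494 genes were higher in siTotal2 than in mock (14.1% of those tested) and 2242 were lower (12.6%). Against siControl, 4002 were higher (22.6%) and 3999 were lower (22.6%). With the control groups weighted equally, 3509 were higher (19.8%) and 3291 were lower (18.6%). Mock and siControl themselves differed in 7065 genes (39.8%).

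Against both control groups, 1482 genes were higher in siTotal2 (8.36%) and 1311 were lower (7.39%). All 2793 were also called with the controls weighted equally. Most of these differences were small: the median of the smaller of a gene's 2 changes was 0.26 on the log2 scale. At 2-fold or more against each control group, 146 genes were higher (0.823%) and 22 were lower (0.124%). Single libraries mattered for the first count, which fell to 968 without the second siTotal2 library and to 935 without the first mock library. Another 443 genes (2.50%) were called in opposite directions against the 2 control groups. The control comparisons share the siTotal2 libraries, so the values against mock and against siControl are given side by side and are not independent of each other.

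**Figure D1:**
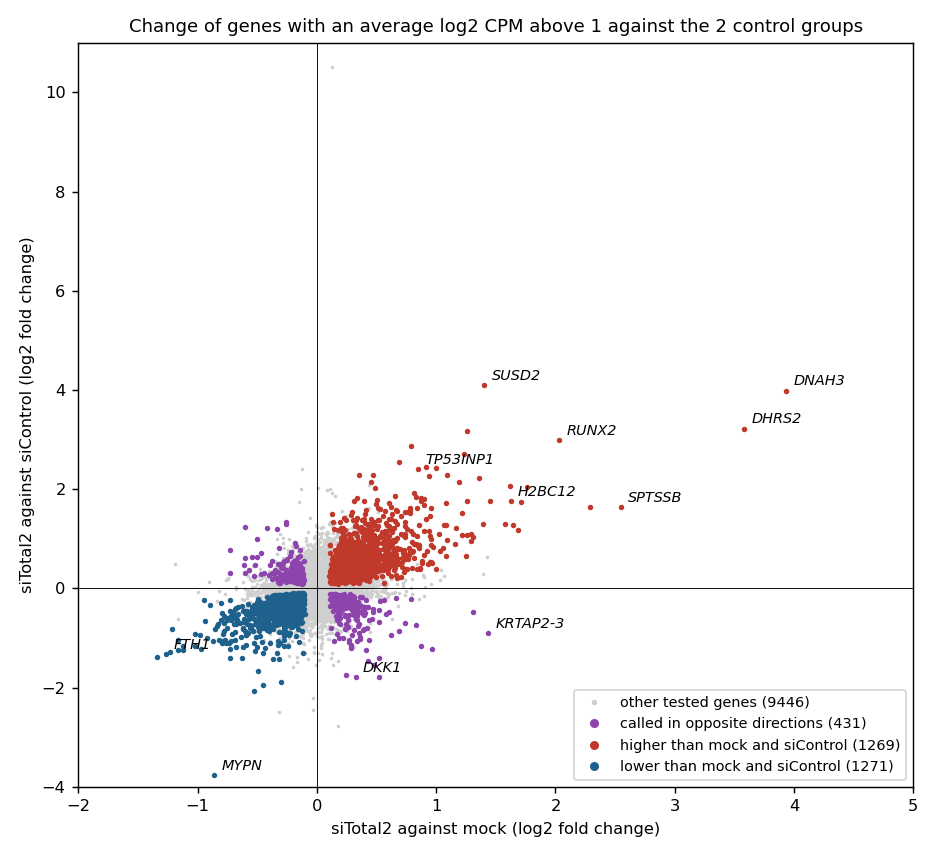
Each dot is 1 of the 12417 tested genes with an average log2 CPM above 1, placed by its log2 fold change in siTotal2 against mock (x axis) and in siTotal2 against siControl (y axis). Red and blue dots differed from both control groups in one direction (1269 higher and 1271 lower), and purple dots differed in opposite directions; DNAH3 and DHRS2 stand far to the upper right, the grey dot at the top is IGFBP5, and the vertical spread is wider than the horizontal one.

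The target gene and its partners were changed in opposite directions. NFYA itself (ENSG00000001167) stood at 46.0 and 46.2 CPM in siTotal2, 55.2 and 59.1 CPM in mock, and 57.4 and 57.5 CPM in siControl. The groups did not overlap, and NFYA fell by 0.31 against mock (log2; SE 0.05, adjusted p = 8.2e-06) and by 0.32 against siControl (SE 0.05, adjusted p = 1.8e-06). NFYB (ENSG00000120837), which encodes a histone-fold subunit, stood at 52.6 and 52.8 CPM in siTotal2, 33.6 and 33.8 CPM in mock, and 31.5 and 33.6 CPM in siControl. It rose by 0.64 against mock (SE 0.06) and by 0.70 against siControl (SE 0.06). NFYC (ENSG00000066136), the other histone-fold subunit, stood at 86.1 and 83.3 CPM in siTotal2, 57.1 and 58.9 CPM in mock, and 56.0 and 55.0 CPM in siControl, and rose by 0.55 and 0.61. Every siTotal2 library was above every control library for both partners. OARD1, which overlaps NFYA from the minus strand, was at 24.7 and 26.6 CPM in siTotal2, 23.8 and 27.3 CPM in mock, and 26.7 and 27.5 CPM in siControl and was not called.

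**Figure D2:**
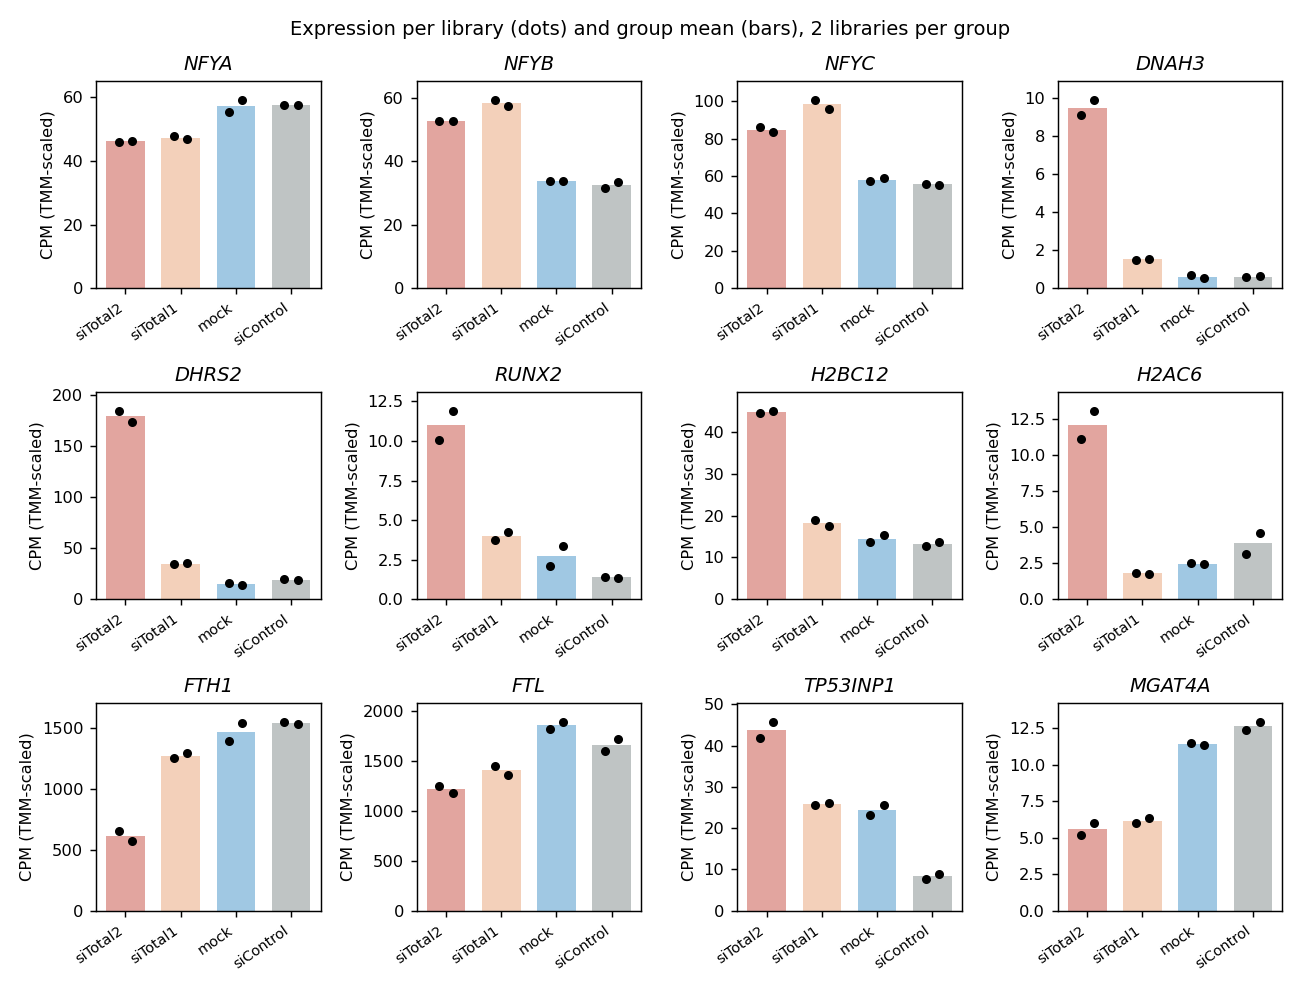
TMM-scaled CPM of 12 genes in the 2 libraries (dots) of siTotal2, siTotal1, mock and siControl, with the group means as bars on axes that start at 0. NFYA is low and NFYB and NFYC are high in both siTotal groups, while DNAH3, DHRS2, H2BC12, H2AC6 and FTH1 set siTotal2 apart from the other 3 groups.

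The largest rises were in genes at low or moderate levels in the controls. For genes named here and below for large changes, separation of the siTotal2 from the control libraries is not a separate result. DNAH3, a heavy chain of the axonemal dynein motor (ENSG00000158486, chromosome 16), had 9.09 and 9.90 CPM in siTotal2, 0.694 and 0.530 CPM in mock, and 0.578 and 0.620 CPM in siControl. It rose by 3.93 against mock (SE 0.18, adjusted p = 9.0e-19) and by 3.98 against siControl (SE 0.19, adjusted p = 1.7e-19), 15.3-fold by the smaller change. DHRS2, a short-chain dehydrogenase gene (ENSG00000100867, chromosome 14), had 184 and 174 CPM in siTotal2, 15.6 and 14.1 CPM in mock, and 19.8 and 18.6 CPM in siControl. It rose by 3.58 against mock and by 3.22 against siControl (SE 0.06 each), and its lowest siTotal2 library was far above its highest control library. RUNX2, the transcription factor gene best known from bone formation, had 10.1 and 11.9 CPM in siTotal2, 2.08 and 3.39 CPM in mock, and 1.42 and 1.35 CPM in siControl. Its rise was 2.03 against mock (SE 0.14) and 2.99 against siControl (SE 0.17).

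Other large rises included SPTSSB, which encodes a small subunit of serine palmitoyltransferase, the first enzyme of sphingolipid synthesis. It had 8.70 and 8.81 CPM in siTotal2, 1.43 and 1.56 CPM in mock, and 2.68 and 2.94 CPM in siControl, a rise of 2.55 against mock and 1.64 against siControl. SUSD2, a cell-surface protein gene, had 59.9 and 60.6 CPM in siTotal2, 22.1 and 23.5 CPM in mock, and 3.71 and 3.34 CPM in siControl. Its control groups lay far apart, so its rise was 1.40 against mock and 4.09 against siControl (SE 0.07 and 0.09). SLC4A8, a sodium-driven bicarbonate exchanger gene, rose by 1.62 and 2.06, CD22, a lectin gene known from B cells, by 1.36 and 2.23, and FRY, a gene of a large scaffold protein, by 1.40 and 1.29. AC012435.1, a transcribed pseudogene, rose by 1.76 and 2.04, and the antisense gene AC104534.1 by 1.45 and 1.75, with the change against mock given first in each case. The remaining genes among the 15 largest rises were histone and mitochondrial transfer RNA genes, given under those groups.

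Replication-dependent histone genes were raised in siTotal2. Of 69 cluster histone genes, 15 had enough reads, and 10 were higher than both control groups and 0 lower, against 8.36% and 7.39% of all genes. Their median change was 1.47 against mock and 1.07 against siControl, where the median of all genes was 0.0072 and 0.0032. The other 54 members did not pass the filter on low counts, and this family was widened after its values were seen, so its count describes these libraries. The narrower list of 15 histone genes gave 5 higher and 0 lower of 10 tested (medians 0.72 and 0.89). Replication-dependent histone messages lack the usual poly(A) tail, and these libraries were selected for polyadenylated RNA, so the counts cover the polyadenylated share of these transcripts.

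H2BC12 (ENSG00000197903), which encodes a form of histone H2B, had 44.3 and 44.9 CPM in siTotal2, 13.7 and 15.3 CPM in mock, and 12.7 and 13.7 CPM in siControl. It rose by 1.62 against mock (SE 0.07, adjusted p = 3.1e-19) and by 1.75 against siControl (SE 0.07, adjusted p = 5.1e-21). H2AC6, an H2A gene, had 11.1 and 13.0 CPM in siTotal2, 2.50 and 2.43 CPM in mock, and 3.15 and 4.61 CPM in siControl, and rose by 2.29 and 1.64. In both genes the siTotal2 libraries stood apart from all 4 control libraries. H1-2, a linker histone gene, had 20.9 and 20.3 CPM in siTotal2, 6.27 and 7.01 CPM in mock, and 7.31 and 9.62 CPM in siControl, and rose by 1.64 and 1.29. H2BC5 rose by 1.21 and 1.07, H2BC21 by 1.78 and 1.67, and H2AC25 by 1.08 and 1.28. Near-identical copies of histone genes can share reads, so the split of reads between members is uncertain. In the leave-one-out fits the family held between 8 and 9 members higher and 0 lower.

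**Figure D3:**
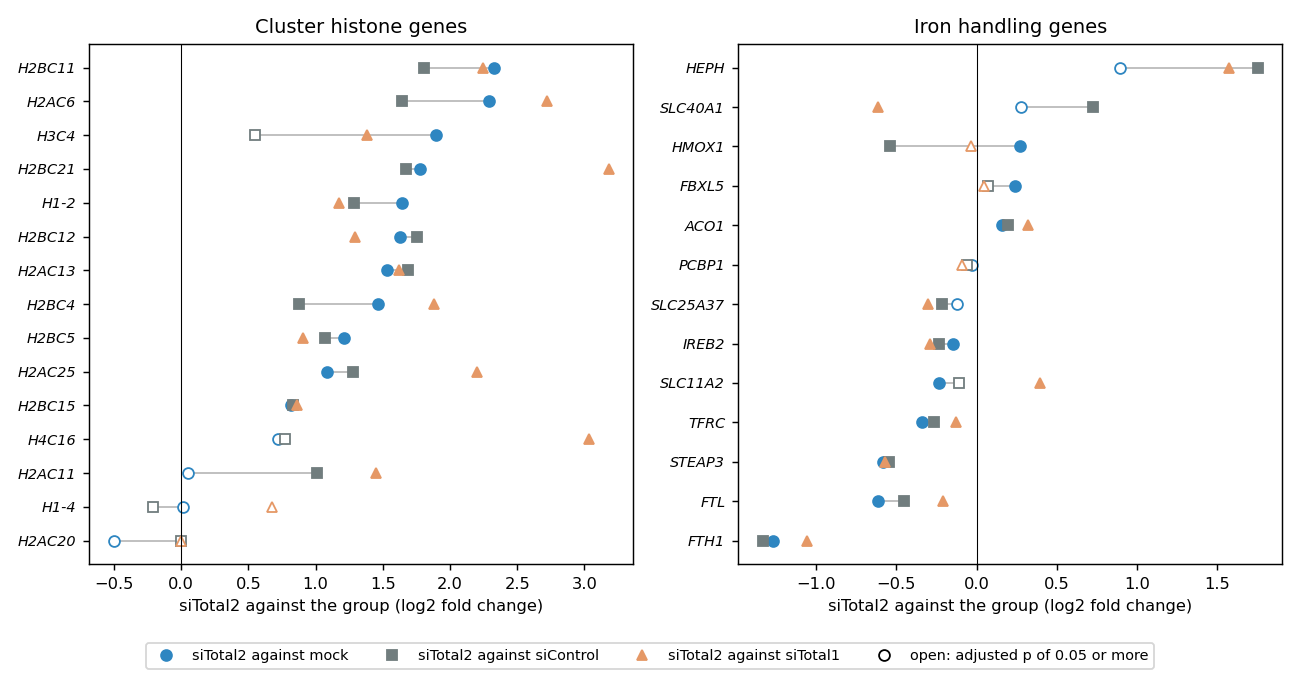
Log2 fold change of siTotal2 against mock (blue circles), siControl (grey squares) and siTotal1 (orange triangles) for the 15 tested cluster histone genes (left) and the 13 tested iron handling genes (right), with open symbols where the adjusted p was 0.05 or more. Most histone genes lie to the right of 0 against all 3 groups, and FTH1 and FTL lie to the left of 0 against all 3.

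CCAAT boxes were looked up in RefSeq promoter windows (GRCh38.p14, 250 bases before to 50 after each start) as the words CCAAT or ATTGG, its reading on the other strand. At least one such word was present for 14 of 15 tested cluster histone genes (93.3%), against 4924 of the 11499 tested genes with a window (42.8%). The share was 42.2% among genes higher in siTotal2 than in both control groups (470 of 1114) and 40.9% among those lower (417 of 1020). Motif presence was therefore near the background in the called genes as a whole and high in the histone genes. The words are descriptions of the letters in these windows and not measured binding. The lines below show, with the word in capitals, 29 bases around it for 4 histone genes and a tubulin gene that rose and for 2 genes that fell, since both kinds carry it.
H2AC6, chr6:26124092-26124120, plus strand: atttgctaccgaCCAATcaaaaagtcgga
H2BC12, chr6:27146921-27146949, minus strand: ccctaataaccaCCAATcagatacaggac
H1-2, chr6:26056511-26056539, minus strand: gcgaccagagcaCCAATcagagcgcgcct
H2BC5, chr6:26158036-26158064, plus strand: tctaaaattaatCCAATcataaacgaaat
TUBA1A, chr12:49189189-49189217, minus strand: acgtcgcttgcaCCAATcaccagtctcct
FTL, chr19:48965216-48965244, plus strand: ctgccaccgcagATTGGccgctagccctc
PHTF2, chr7:77798687-77798715, plus strand: ttccgtgctcccATTGGgcccacagatgt

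The ferritin genes, among the most abundant transcripts named here, were lower in siTotal2. FTH1, the heavy chain of the iron storage protein ferritin (ENSG00000167996, chromosome 11), had 651 and 571 CPM in siTotal2, 1396 and 1543 CPM in mock, and 1547 and 1530.5 CPM in siControl. The groups did not overlap, and FTH1 fell by 1.27 against mock (SE 0.05, adjusted p = 4.8e-16) and by 1.33 against siControl (SE 0.05, adjusted p = 1.3e-17). FTL, the ferritin light chain (ENSG00000087086, chromosome 19), had 1244 and 1179 CPM in siTotal2, 1818 and 1885 CPM in mock, and 1598 and 1718 CPM in siControl, and fell by 0.61 and 0.45 (SE 0.04 each). Among 12 of 25 FTH1 pseudogenes with enough reads, 10 were lower than both control groups (83.3%) and 0 were higher (medians -1.16 and -1.26). Among all genes the shares were 7.39% and 8.36%. The pseudogenes are near copies of FTH1 and may hold its reads, so they are not separate evidence; without the first mock library 5 were lower and without the second siTotal2 library 6.

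Other genes of iron handling changed by less. STEAP3, an endosomal iron reductase gene, had 52.5 and 53.2 CPM in siTotal2, 78.5 and 79.6 CPM in mock, and 77.5 and 76.6 CPM in siControl, and fell by 0.58 and 0.54. TFRC, the transferrin receptor that brings iron into the cell, fell by 0.34 against mock and by 0.26 against siControl. IREB2, an iron-responsive regulator of ferritin and transferrin receptor messages, fell by 0.14 and 0.23, while ACO1, the related iron-responsive aconitase, rose by 0.16 and 0.20. In all, 5 of 13 tested iron handling genes were lower (38.5%) and 1 was higher (7.69%) than both control groups. Among all genes the shares were 7.39% and 8.36%. The list medians were -0.12 against mock and -0.21 against siControl. HMOX1, the heme oxygenase gene that releases iron from heme, was higher than mock by 0.27 and lower than siControl by 0.54. The iron list was drawn up after the values of FTH1 were seen.

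Among the other large falls, CAPN15, a calpain-like protease gene, had 23.3 and 22.4 CPM in siTotal2, 48.4 and 51.2 CPM in mock, and 52.1 and 49.5 CPM in siControl. It fell by 1.12 against mock and by 1.15 against siControl (SE 0.08 each). MGAT4A, which encodes a Golgi enzyme that branches N-glycans, had 5.21 and 6.02 CPM in siTotal2, 11.5 and 11.4 CPM in mock, and 12.4 and 12.9 CPM in siControl, and fell by 1.02 and 1.17. Neither gene overlapped between siTotal2 and the controls, but both were chosen by the size of their fall. LIN52, a subunit of the MuvB core that binds cell cycle promoters, had 13.7 and 13.3 CPM in siTotal2, 25.8 and 25.4 CPM in mock, and 26.5 and 27.7 CPM in siControl, and fell by 0.92 and 1.01. E2F4, which joins MuvB in the repressor complex DREAM, fell by 0.39 and 0.44. Of 11 tested genes of these complexes, 2 were lower (18.2%) and 1, RBL2, was higher (9.09%, by 0.17 and 0.63). Among all genes 7.39% were lower and 8.36% higher. The list medians were -0.000405 and -0.06, and the list was added after the values were seen. PHTF2 fell by 0.87 and 1.07, FAM167A by 0.97 and 1.22, and the postsynaptic gene DDN by 1.02 and 0.92. The antisense gene LNCOC1 fell by 0.98 and 0.95, and GBX2-AS1 by 0.82 and 1.04. MYPN, a sarcomere gene, had 0.554 and 0.562 CPM in siTotal2, 0.833 and 1.23 CPM in mock, and 7.75 and 7.49 CPM in siControl, so its fall was 0.86 against mock (adjusted p = 0.017) and 3.76 against siControl, and 3 of 6 leave-one-out fits kept the call.

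Many p53 targets were higher in siTotal2. Of 30 tested, 15 were higher than both control groups (50%, against 8.36% of all genes) and 0 were lower. The medians were 0.18 against mock and 0.32 against siControl. Against siControl alone 19 were higher and 6 lower, among the latter MDM2 (-0.46) and PMAIP1 (-1.15). Of these 6, AEN and PLK3 were higher than mock, so 2 members were called in opposite directions. TP53INP1, a p53-induced gene of cell death and autophagy, had 41.9 and 45.7 CPM in siTotal2, 23.3 and 25.5 CPM in mock, and 7.70 and 8.94 CPM in siControl. It rose by 0.85 against mock (SE 0.06) and by 2.4 against siControl (SE 0.07), and the control groups themselves lay far apart. CDKN1A, the cell cycle inhibitor p21, had 415 and 389 CPM in siTotal2, 284 and 305 CPM in mock, and 328 and 334 CPM in siControl, and rose by 0.45 and 0.28. The death receptor gene FAS rose by 0.48 and 0.37, the RNA-binding protein gene ZMAT3 by 0.49 and 0.44, the stress sensor gene SESN1 by 0.46 and 0.97, and FUCA1, a lysosomal fucosidase gene, by 0.50 and 0.79. GDF15, the stress cytokine gene, was at 0.29 against mock (adjusted p = 0.075) and 0.91 against siControl. Leaving out single libraries left between 12 and 15 members higher, and 1 member was lower without the first siTotal2 library.

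Interferon response genes also stood higher, mostly at low levels. Of 29 tested, 12 were higher than both control groups (41.4%) and 0 were lower, against 8.36% and 7.39% of all genes. The medians were 0.33 and 0.16. PSMB9, an immunoproteasome subunit gene, had 7.56 and 6.92 CPM in siTotal2, 2.88 and 3.20 CPM in mock, and 2.08 and 2.18 CPM in siControl, and rose by 1.25 and 1.76. IFI6 had 12.2 and 10.8 CPM in siTotal2, 6.21 and 6.38 CPM in mock, and 3.36 and 3.18 CPM in siControl, and rose by 0.87 and 1.81. In both genes all siTotal2 values exceeded all control values. IFIT1, which binds foreign RNA ends, rose by 0.94 and 1.16, IFIT2 by 0.90 and 1.81, and IFIH1, the sensor of long double-stranded RNA, by 0.62 and 0.91. The transcription factor gene STAT2 was higher than mock by 0.31 and lower than siControl by 0.22. Between 8 and 13 members were higher when single libraries were left out, with the fewest without the second siTotal2 library.

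Genes of the amino acid response were lower. Of 26 tested genes of the ATF4 list, which answers amino acid shortage and protein folding stress, 10 were lower and 1 was higher than both control groups (7.39% and 8.36% of all genes), with medians of -0.21 and -0.34. ATF4 itself had 350.1 and 354 CPM in siTotal2, 451 and 446 CPM in mock, and 576 and 568 CPM in siControl, and fell by 0.35 and 0.70. SLC7A11, the cystine importer gene, had 47.6 and 51.9 CPM in siTotal2, 71.3 and 75.6 CPM in mock, and 86.6 and 86.2 CPM in siControl, and fell by 0.56 and 0.79. Both genes were lowest in siTotal2 and highest in siControl, with no overlap. SLC7A5, the large neutral amino acid transporter, fell by 0.48 and 0.72, STC2 by 0.48 and 0.96, and CHAC1, which breaks down glutathione, by 0.63 and 1.41. The exception, NUPR1, had 0.415 and 0.562 CPM in siTotal2, 0.238 and 0.144 CPM in mock, and 0.0788 and 0.0269 CPM in siControl, and no member of the list was higher when either siTotal2 library or either mock library was left out. ATF3 was higher than mock by 0.24 and lower than siControl by 1.74.

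Part of the oxidative and heat stress genes were lower as well. Of 19 NRF2 antioxidant genes, 7 were lower (36.8%) and 0 higher, against 7.39% and 8.36% of all genes. The medians were -0.21 and -0.24. Besides FTH1, FTL and SLC7A11, which other lists also hold, the lower members were TXNRD1, OSGIN1 and the glutamate-cysteine ligase genes GCLC and GCLM. TXNRD1, thioredoxin reductase, had 501 and 494 CPM in siTotal2, 610.1 and 638 CPM in mock, and 1092 and 1113 CPM in siControl, and fell by 0.33 and 1.15. Of 22 heat shock genes, 8 were lower (36.4%) and 1 was higher (4.55%), with medians of -0.12 and -0.12. HSPA1B fell by 0.24 and 0.45, HSPH1 by 0.25 and 0.19, and HSPA4L rose by 0.23 and 0.50. HSPA1B has a near-identical copy in HSPA1A, so its value is uncertain. The lower heat shock members numbered 3 without the second siTotal2 library, 5 without the second mock library and 5 without the first siControl library. Hypoxia targets gave 4 lower (28.6%) and 0 higher of 14 (medians -0.21 and -0.19). The lower members were led by ADM (0.67 and 0.72 lower) and VEGFA (0.60 and 0.67 lower). The count of lower members was 2 without either siTotal2 library or without the second mock library and 7 without the first siControl library.

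Some cytosolic ribosomal protein genes were lower by small amounts. Of 35 tested, 10 were lower (28.6%, against 7.39% of all genes) and 0 were higher than both control groups, with medians of -0.11 and -0.10. RPL10 fell by 0.21 and 0.43, RPS7 by 0.24 and 0.18, and RPL6 by 0.16 and 0.15. The count was 3 without the second siTotal2 library and 6 without the first or the second mock library. Purine and one-carbon genes gave 2 lower of 20 (PFAS, 0.32 and 0.26, and CTPS1, 0.24 and 0.26) and 0 higher (medians -0.09 and 0.05), and nuclear genes of the respiratory chain gave 0 called of 31. For that last list the medians were -0.05 against mock and 0.01 against siControl, with 7 members lower and 0 higher than mock, and 8 higher and 2 lower than siControl.

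**Figure D4:**
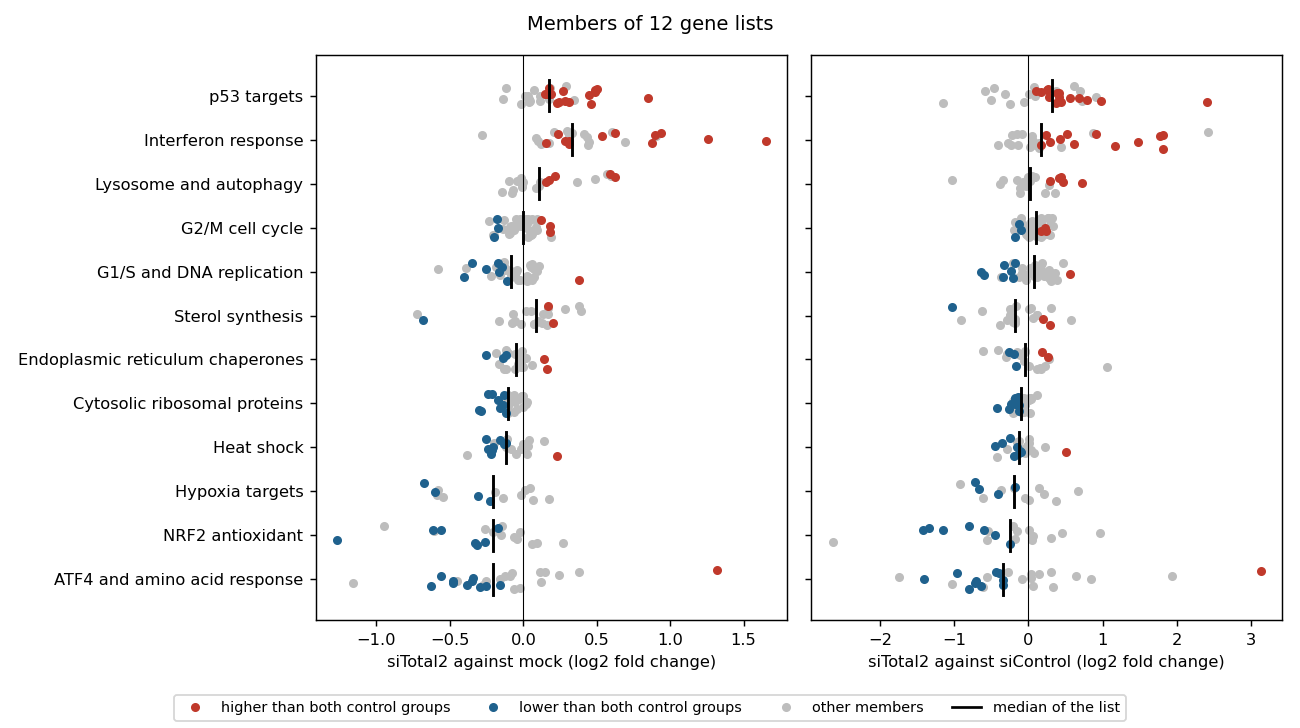
Log2 fold change of each tested member of 12 gene lists in siTotal2 against mock (left) and against siControl (right), with members higher than both control groups in red, lower than both in blue, others in grey, and the median of each list as a black bar. The p53 and interferon lists hold only red and grey members, and the NRF2 and hypoxia lists hold only blue and grey ones.

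Cell cycle genes, many of them known NF-Y targets, were called in both directions by small amounts. Here and in the lists that follow, counts of 5 or fewer moved by up to 3 members when single libraries were left out. Of 43 G2/M cell cycle genes, 3 were higher and 3 lower than both control groups (6.98% each, against 8.36% and 7.39% of all genes), with medians of -0.000115 against mock and 0.10 against siControl. All members lay between -0.24 and 0.19 against mock and between -0.20 and 0.33 against siControl. NEK2 and NDC80, genes of centrosome and kinetochore, rose by 0.18 and 0.22 and by 0.18 and 0.24, and the kinases and motors PLK4 and KIF11 fell by 0.17 and 0.18 and by 0.20 and 0.12. None of the 6 calls held in every leave-one-out fit. CCAAT or its complement was found for 83.3% of the members with a promoter window.

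In the G1/S and DNA replication list, 7 of 37 were lower (18.9%) and 1 was higher (2.7%), against 7.39% and 8.36% of all genes. The list medians were -0.08 and 0.07. CCND1, cyclin D1, had 489 and 478 CPM in siTotal2, 629.7 and 650.0 CPM in mock, and 725 and 736 CPM in siControl, and fell by 0.40 and 0.60. E2F8 fell by 0.35 and 0.64, POLE2 by 0.25 and 0.21, and RRM2 by 0.17 and 0.34. The replication helicase genes MCM4, MCM5, MCM6 and MCM7 were lower than mock by 0.12, 0.12, 0.16 and 0.13 and higher than siControl by 0.28, 0.10, 0.18 and 0.18, so no direction held for them. The 7 lower members became 4 without either siTotal2 library or without the first mock library. DNA repair genes gave 2 higher (EXO1 and RAD51C) and 2 lower (PALB2 and FANCI) of 27, 7.41% each, near the all-gene shares. Each called member changed by 0.28 or less against either control group, and the list medians were 0.02 and 0.03.

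Sterol synthesis genes differed in direction between the control groups. Lipid and folding genes called against both went in either direction, against 8.36% higher and 7.39% lower among all genes. Of 22 sterol synthesis genes, 2 were higher (9.09%), 1 was lower (4.55%) and 5 were called in opposite directions. Their medians were 0.09 against mock and -0.18 against siControl. SC5D, a late enzyme of cholesterol synthesis, had 24.9 and 25.3 CPM in siTotal2, 38.8 and 42.1 CPM in mock, and 49.6 and 53.1 CPM in siControl, and fell by 0.68 and 1.03. SREBF2, the regulator of the pathway, rose by 0.17 and 0.29, and FDFT1, squalene synthase, by 0.20 and 0.19. HMGCS1, MVK and MSMO1 were among those called in opposite directions, higher than mock and lower than siControl. Of 14 fatty acid synthesis genes, 1 was higher (7.14%) and 2 were lower (14.3%), with medians of -0.01 and 0.13. FADS2 rose by 0.58 and 0.67, and SCD and FASN fell by 0.27 and 0.34 and by 0.23 and 0.25. Of 22 endoplasmic reticulum chaperone genes, 2 were higher (PDIA3 and DNAJB11, 9.09%) and 3 lower (CALR, HSPA5 and MANF, 13.6%). That list had medians of -0.05 and -0.05, and CALR was lower by 0.26 and 0.20. The CCAAT word or its complement was found for 14 of the 16 sterol genes with a promoter window (87.5%) and for 19 of 21 chaperone genes with one (90.5%).

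Growth control genes moved in both directions. MYC had 253 and 255 CPM in siTotal2, 341 and 350.4 CPM in mock, and 332 and 342 CPM in siControl, and fell by 0.45 and 0.41. PROM1 fell by 0.69 and 0.59. In the same Wnt and stem cell list, AXIN2, RNF43, SOX9 and SP5 rose. Their changes were 0.35, 0.29, 0.29 and 0.78 against mock and 2.28, 1.48, 1.53 and 1.52 against siControl. The list gave 4 higher (26.7%) and 2 lower (13.3%) of 15, against 8.36% and 7.39% of all genes (medians 0.08 and 0.35). AXIN2 and RNF43 are feedback inhibitors induced by Wnt signalling. Immediate early and ERK feedback genes gave 6 lower (25%) and 3 higher (12.5%) of 24 (medians 0.01 and -0.13). EGR1 fell by 0.68 and 0.40, JUN by 0.39 and 1.11, DUSP1 by 0.41 and 0.80 and IER2 by 0.38 and 0.43, while DUSP4, a phosphatase gene that restrains ERK, rose by 0.60 and 0.54. YAP targets gave 1 higher (F3) and 1 lower (FJX1) of 15, with medians of -0.06 against mock and -0.44 against siControl.

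Epithelial genes were lower in part and a few mesenchymal genes were higher. Among 20 epithelial junction genes, 5 were lower (ELF3, PKP3, GRHL2, CLDN7 and TJP1) and 0 were higher, with medians of 0.01 and -0.20. The lower share was 25%, against 7.39% of all genes. Against mock alone 5 members were higher and 5 lower. Against siControl alone 2 were higher and 12 lower, and 2 members were called in opposite directions. ELF3, an epithelial transcription factor gene, had 24.2 and 27.4 CPM in siTotal2, 39.6 and 47.6 CPM in mock, and 40.7 and 49.8 CPM in siControl, and fell by 0.75 and 0.81. The count lower than both control groups was 2 without the second mock library and 3 without either siTotal2 library or without the first mock library. Keratin genes gave 3 lower and 2 higher of 13 (medians 0.06 and -0.0012), and the line's identity genes gave 1 lower (KRT18) and 0 higher of 7 (medians -0.01 and -0.07). KRT7 fell by 0.53 and 2.06, KRT80 by 0.50 and 1.67 and KRT18 by 0.18 and 0.13. KRT20, a keratin of differentiated gut epithelium, had 4.04 and 5.21 CPM in siTotal2, 0.952 and 0.987 CPM in mock, and 0.762 and 0.970 CPM in siControl, and rose by 2.26 and 2.42. It was the 1 called gene of the 6 tested in the intestinal differentiation list (medians 0.34 and 0.92), and KRT23 rose by 0.74 and 1.54.

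Of 24 mesenchymal and matrix genes, 4 were higher (16.7%, against 8.36% of all genes) and 0 lower, with medians of 0.29 and 0.31. Against mock alone 10 were higher and 0 lower. Against siControl alone 9 were higher and 7 lower, and 5 members were called in opposite directions. FN1, fibronectin, had 53.3 and 55.9 CPM in siTotal2, 31.3 and 29 CPM in mock, and 32.0 and 29.7 CPM in siControl, and rose by 0.86 and 0.82. VIM, vimentin, had 9.58 and 8.71 CPM in siTotal2, 6.35 and 4.09 CPM in mock, and 1.26 and 1.24 CPM in siControl, and rose by 0.79 and 2.87. ZEB1 rose by 0.53 and 1.59 and TGFB1 by 0.33 and 0.47. The fibroblast markers DCN, COL1A2 and COL3A1 were at or near 0 in the second mock and both siControl libraries and had reads in both siTotal2 libraries (43 and 16 for COL1A2, 40 and 22 for COL3A1) and in the first mock library (158 and 97). Without that mock library 6 mesenchymal genes and 2 fibroblast markers were higher. Their part in these rises was not tested, and in bulk RNA fewer cells of a type and less RNA per cell cannot be told apart.

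Lysosome and autophagy genes gave 5 higher (23.8%, against 8.36% of all genes) and 0 lower of 21, with medians of 0.11 and 0.02. TFEB, the regulator of lysosomal genes, rose by 0.59 and 0.44, WIPI1, which acts in autophagosome formation, by 0.62 and 0.47, LAMP2, a lysosomal membrane protein gene, by 0.22 and 0.72, and CTSA, a lysosomal protease gene, by 0.15 and 0.41. GABARAPL1 was higher than mock by 0.36 and lower than siControl by 1.02. Apoptosis regulators gave 1 higher (BAD, 0.39 and 0.40) and 1 lower (BID, 0.17 and 0.25) of 20, with medians of 0.06 and -0.0090. Glycolysis genes gave 3 lower (HK2, TPI1 and ALDOA) and 1 higher (HK1) of 22. The lower share was 13.6%, against 7.39% of all genes. The list medians were -0.07 and -0.0016, and HK2 was lower by 0.40 and 0.30.

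Some transcripts of the mitochondrial genome, mostly transfer RNAs, were higher in siTotal2. Of 16 mitochondrial transfer RNA genes with enough reads, of 22 in all, 8 were higher (50%) and 0 lower than both control groups. Among all genes the shares were 8.36% and 7.39%. The list medians were 1.02 and 1.31, and this group was added after its values were seen. These libraries were selected for polyadenylated RNA, so the counts may not follow the levels of transfer RNAs. MT-TQ had 3.91 and 3.85 CPM in siTotal2, 1.37 and 0.963 CPM in mock, and 1.16 and 1.16 CPM in siControl, and rose by 1.71 and 1.74. MT-TV rose by 1.57 and 1.31. Without the second siTotal2 library 5 were higher. Among the 13 protein-coding genes of the mitochondrial genome, 3 were higher (MT-ND6, MT-ND2 and MT-ND3, 23.1%) and 0 lower (medians 0.46 and 0.36). MT-ND6 had 164 and 183 CPM in siTotal2, 78.8 and 61.1 CPM in mock, and 67.2 and 102 CPM in siControl, and rose by 1.31 and 1.04. The count was 1 without either siTotal2 library, without the second mock library or without the first siControl library, and 2 without the first mock library. Nuclear copies of mitochondrial genes can hold their reads.

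Lists of neural, tubulin and ciliary genes held a few called members in either direction, against 8.36% higher and 7.39% lower among all genes. MAP2, a microtubule-associated protein gene, had 19.8 and 22.6 CPM in siTotal2, 8.77 and 8.96 CPM in mock, and 10.3 and 9.81 CPM in siControl, and rose by 1.26 and 1.07. SNAP25, of the vesicle fusion machinery, rose by 1.57 and 3.23 with 0.674 CPM or less in every control library, and SYT1 by 0.32 and 0.29. These were 3 of 7 tested neural markers (medians 0.28 and 0.33), with 0 lower; STMN2 was at 1 read in each siTotal2 library and at 0 in all 4 control libraries. TUBA1A, an alpha tubulin gene, had 95.1 and 87.7 CPM in siTotal2, 35.1 and 39.6 CPM in mock, and 42.0 and 43.2 CPM in siControl. It rose by 1.29 against mock and by 1.1 against siControl (SE 0.06 each), while TUBA1C fell by 0.28 and 0.40 and TUBB6 by 0.19 and 0.48, so that 1 of 17 tested tubulin genes was higher and 2 lower (medians 0.08 and 0.02), in a list added after the values were seen. Alpha tubulin genes are similar enough in sequence for reads to be shared. Among 14 axonemal and ciliary genes, DNAH3 and DNAH10 (0.39 and 0.87, called in 2 of 6 leave-one-out fits) were higher and TTC8 (0.80 and 0.63) and IFT88 (0.23 and 0.37) lower, with medians of -0.02 and 0.19. Muscle markers gave 1 higher (DES, 0.40 and 1.31) and 1 lower (MYPN) of 7 (medians -0.19 and -0.27), and 0 of 2 tested blood cell markers were called (medians 0.53 and -0.05).

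Inflammatory genes gave 2 higher and 2 lower of 16 (medians 0.10 and -0.25). CXCL8, the neutrophil chemokine gene, had 2.63 and 2.35 CPM in siTotal2, 0.813 and 0.722 CPM in mock, and 1.02 and 1.19 CPM in siControl, and rose by 1.68 and 1.17. ICAM1 rose by 0.46 and 0.77, and TNFAIP2 and NFKB1 fell by 0.33 and 0.34 and by 0.17 and 0.18. In the machinery of RNA interference, which carries siRNAs, 3 of 15 tested genes were lower (20%) and 1 was higher (6.67%). Among all genes the shares were 7.39% and 8.36%, and the list medians were -0.06 and -0.07. TNRC6C, a silencing scaffold gene, had 23.0 and 24.4 CPM in siTotal2, 33.1 and 36 CPM in mock, and 31.8 and 31.8 CPM in siControl, and fell by 0.54 and 0.42. AGO2, the slicing Argonaute, fell by 0.27 and 0.16, XPO5 by 0.12 and 0.15, and TNRC6B rose by 0.22 and 0.85.

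The 443 genes called in opposite directions comprised 237 that were higher than mock and lower than siControl and 206 of the reverse. DKK1, a secreted Wnt inhibitor gene, had 195 and 190.3 CPM in siTotal2, 151 and 157 CPM in mock, and 659 and 670.2 CPM in siControl, a change of 0.33 against mock and -1.79 against siControl. SLC2A3, a glucose transporter gene, had 13.9 and 14.7 CPM in siTotal2, 6.41 and 9.34 CPM in mock, and 29.2 and 35 CPM in siControl, at 0.88 and -1.17. The siTotal2 libraries lay between the control groups in both genes. GALNT5, a gene of mucin-type glycosylation, was at 0.52 and -1.79, KRTAP2-3 at 1.44 and -0.91, and STX11 at 0.97 and -1.21. For all of these the mock and siControl libraries did not overlap. The genes were chosen for the largest gap between the control groups among those called in opposite directions. Neither this separation nor the place of siTotal2 between the controls is therefore a separate result.

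Set directly against siTotal1, the other siRNA to all NFYA transcripts, siTotal2 had 3651 genes higher (20.6%) and 4124 lower (23.3%). NFYA did not pass the test between them, at 46.0 and 46.2 CPM in siTotal2 and 47.9 and 46.8 CPM in siTotal1 (-0.04, SE 0.05, adjusted p = 0.58). NFYB and NFYC were slightly lower in siTotal2, by 0.15 (adjusted p = 0.027) and 0.21 (adjusted p = 2.9e-04). MGAT4A also missed the threshold, at 5.21 and 6.02 CPM in siTotal2 and 6.00 and 6.33 CPM in siTotal1 (-0.13, SE 0.11, adjusted p = 0.35). The mitochondrial transfer RNA genes gave 0 calls in either direction between them.

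Several of the largest changes were larger in siTotal2 than in siTotal1. DNAH3 had 9.09 and 9.90 CPM in siTotal2 and 1.50 and 1.54 CPM in siTotal1, a difference of 2.64 (SE 0.16, adjusted p = 3.5e-16). DHRS2 had 184 and 174 CPM in siTotal2 and 34.1 and 35.4 CPM in siTotal1, a difference of 2.36, and FTH1 had 651 and 571 CPM in siTotal2 and 1251 and 1295 CPM in siTotal1, a difference of -1.06. Of the 15 tested cluster histone genes, 13 were higher in siTotal2 than in siTotal1 and 0 lower, against 20.6% and 23.3% of all genes, with a median of 1.45. For H2AC6 the siTotal2 libraries had 11.1 and 13.0 CPM, and the siTotal1 libraries, at 1.86 and 1.79 CPM, lay below all control libraries. Interferon response genes gave 14 higher and 0 lower of 29, and PSMB9 stood at 7.56 and 6.92 CPM in siTotal2 against 1.03 and 1.37 CPM in siTotal1. MSRB3-AS1 had the largest difference among genes called against both controls with an average log2 CPM above 1, at 6.48 and 7.45 CPM in siTotal2 and 0.722 and 1.23 CPM in siTotal1 (2.83), and SPTSSB (2.72) was near it.

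Other genes were lower in siTotal2 than in siTotal1. CXCL8 had 2.63 and 2.35 CPM in siTotal2 and 11.2 and 9.83 CPM in siTotal1, a difference of -2.08 (SE 0.14), so both siRNAs lay above the controls and siTotal1 lay farther above. JUN had 15.1 and 14.6 CPM in siTotal2 and 50.2 and 45.8 CPM in siTotal1, with mock and siControl in between, and differed by -1.69. HKDC1, a hexokinase-like gene, differed by -1.91, MYPN by -1.76 and KRT80 by -1.66. All 15 tested YAP target genes were lower in siTotal2 than in siTotal1 (median -0.87), and so were 34 of 35 cytosolic ribosomal protein genes, by small amounts (median -0.19), with 0 higher in either list. The p53 list was split evenly, with 10 higher and 10 lower of 30 (median 0.02).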

How the data were processed

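The deposited table holds raw read counts per gene for 12 libraries of 6 groups. Per the submitters' processing notes, the authors used STAR 2.4.0f1, featureCounts and hg19, and per the labels' protocols the libraries came from a stranded kit after poly(A) selection. For the counting, strand setting and annotation release: not given in the sources used here. Gene names and GRCh38 coordinates came from GENCODE 29, and promoter windows from RefSeq.

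Low genes were removed by filterByExpr (10 reads at least, 15 in total), libraries were scaled by TMM, and counts were fitted with edgeR 4.0.16 (R 4.3.3) as a quasi-likelihood model over all 12 libraries, which share 1 estimate of spread. Called means a Benjamini-Hochberg adjusted p under 0.05 over all tested genes, and a direction was given only where both control comparisons were called in it. CPM are TMM-scaled, and pairs of changes are log2 values against mock first and siControl second. Named genes had an average log2 CPM above 1 for the 15 largest changes each way, with up to 5 members per list; further members are named to complete small counts, after their values were seen. The members and lists were chosen with earlier results of these data known, and 7 of the 43 lists were added after values were seen. Counting error and depth limit genes with few reads. The fit was also run on simulated counts in which mock and siControl had the same means, unlike in these data. That run therefore does not test calls where the control groups differ. Alternatives were DESeq2 1.42.0, other scalings, filters and library sets, a replicate block, each library left out, and a 2-fold threshold. Replicate numbers did not pair libraries: correlations of replicate differences ran from -0.262 to 0.23 over 15 pairs of groups. Some list members that are in the counts are not reported here by name.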

Additional observations from a re-analysis of the deposited data

How the results depend on the processing

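Against both control groups, 1482 genes were higher and 1311 lower in siTotal2. These genes were followed through the alternatives, where a direction was counted only with a call against both control groups. No such gene turned its direction in the 14 alternatives compared, and 584 higher and 637 lower genes were called in all of them. Leaving out single libraries gave 935 to 1263 higher and 1008 to 1288 lower; the higher count was 968 without siTotal2 replicate 2 and 935 without mock replicate 1. The other ranges were 2476 to 3402 higher and 2557 to 3253 lower with controls weighted equally, 3190 to 4711 against mock, 6728 to 8051 against siControl, 5578 to 7101 between mock and siControl, and 6379 to 7843 against siTotal1. At 2-fold or more the counts were 414 higher and 103 lower with controls weighted equally, 287 against mock, 1036 against siControl, 146 and 22 against both, 636 between mock and siControl, and 867 against siTotal1. With mock and siControl fitted as 1 group of 4 libraries, 1168 were higher and 1038 lower. In that fit the difference between the control groups counts as spread within a group. For genes called against both control groups, DESeq2 gave 1004 higher and 1018 lower, and upper-quartile scaling 1768 and 1064. No filter gave 1273 and 1393, and the 6 libraries alone 1383 and 1355. Without the siLong2 libraries the counts were 1403 and 1224. A replicate block gave 1487 and 1320, and the numbers do not pair the libraries. Of 4592 values for 164 named genes, 175 lost their call with the direction kept and 0 reversed. The cause of these shifts was not tested.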
